A study of Mus musculus with 155 samples.

Results

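Gene expression was compared between RA-treated cells that carried H3.3K27M and RA-treated cells that carried H3.3K27L. The comparison used 4 RNA-seq libraries of the 155 samples of the series, namely the H3.3K27M and the H3.3K27L library at 24 h and at 72 h after doxycycline (Dox), and the 2 RA-treated WT-H3.3 libraries were fitted with them. All lines were derived from KH2 Flp-in mouse embryonic stem cells (ESCs) with 1 extra, Dox-inducible copy of SNAP-HA-tagged H3.3, which was wild type (WT-H3.3), carried methionine in place of lysine 27 (H3.3K27M) or carried leucine there (H3.3K27L). Each line grew from a hygromycin-selected colony, and all 3 lines kept their own H3.3 genes. Cells received all-trans retinoic acid (RA) in ESC medium without LIF and 2i inhibitors, Dox was given for 24 or 72 h, and the labels call the product neural progenitor cells derived from ESCs. The duration of RA in the samples with 24 h of Dox is not given separately. Each line had 1 library per Dox time, so the time points stood in for replicates of a line, and a p-value measures the spread left between libraries after the mean difference between Dox times was removed. Since each line is a selected clone, a difference between the mutations and a difference between the clones cannot be told apart here.

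RA drives ESCs out of pluripotency, and depending on the culture the cells take a neural fate or an extraembryonic endoderm fate, the latter marked by Gata6, Sox17 and a secreted basement membrane of laminins and type IV collagen. Hox genes, which set position along the body axis, lie in clusters that are kept silent in ESCs by Polycomb repressive complex 2 (PRC2) through methylation of H3K27 and that open in order after RA. H3.3K27M inhibits PRC2 in a dominant way, whereas H3.3K27L lacks the modifiable lysine without a genome-wide effect on PRC2, so that the pair separates loss of the residue from inhibition of the enzyme.

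Depth was uneven among the libraries. The RA-treated H3.3K27M libraries held 22269533 counts at 24 h and 3105371 at 72 h, those of H3.3K27L held 7464040 and 3268238, and those of WT-H3.3 held 5050115 and 2239137. Genes of chromosomes 8, 14 and Y, which held 10.21% of the counts, were set aside. The endogenous H3f3a and H3f3b genes, whose counts cannot be told from those of a transgene, differed by 0.36 ± 0.17 (SE) and 0.08 ± 0.18 on the log2 scale between the mutant lines (adjusted p = 0.218 and 0.857, edgeR), so they do not check the labels.

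The label of the cells was set against marker genes. Of the 10 neural progenitor markers, Nes had 409.6 and 73.0 CPM (counts scaled to the TMM-adjusted library size) in the H3.3K27M libraries at 24 and 72 h, 275.8 and 79.1 CPM in WT-H3.3 cells and 141.1 and 24.2 CPM in H3.3K27L. Fabp7 stayed at 0.76 CPM or less and Hes5 at 1.14 CPM or less in all 6 libraries, and Sox1 could not be matched by its symbol. The remaining markers were detected in every library. Msi1 ranged from 41.3 to 120.9 CPM, Cdh2 from 25.7 to 248.8 and Pax6 from 11.96 to 47.1. Sox2 ranged from 10.3 to 33.4 CPM, Zic1 from 9.53 to 31.4 and Sox3 from 2.03 to 36.9. The neural progenitor sum ran from 218.8 CPM (H3.3K27L at 72 h) to 845.4 CPM (H3.3K27M at 24 h). Extraembryonic endoderm markers were present as well. Summed levels over 9 of the 10 markers (Sox7, on chromosome 14, left out) were 2096 to 3111 CPM in H3.3K27M cells, 4988 to 5551 CPM in WT-H3.3 cells and 10103 to 12347 CPM in H3.3K27L. Sparc and Lama1 made up most of the sum in every library, with 5906 and 5423 of 12347 CPM in H3.3K27L at 24 h. Afp stayed at 2.66 CPM or less and Ttr at 5.76 CPM or less. In undifferentiated ESCs, Sparc had medians of 382 to 445 CPM in the 3 lines. These endoderm markers go against a purely neural label, and the cells are called RA-treated cells here. In these bulk libraries, fewer cells of a type and less RNA per cell cannot be told apart.

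Among 11769 genes tested with Dox time as a block, 733 (6.23%) differed more than 2-fold between the mutant lines with an adjusted p-value below 0.05 (edgeR quasi-likelihood F test with Benjamini-Hochberg adjustment). Of these, 341 (2.9% of the genes tested) were higher in H3.3K27M and 392 (3.33%) were higher in H3.3K27L. All 341 and all 392 genes kept their direction at 24 h, and 340 and 387 kept it at 72 h. The fold change exceeded 2 at both times for 203 genes higher in H3.3K27M and 256 higher in H3.3K27L. Both library values of one mutant line lay above both values of the other for 236 and 288 genes. These counts follow in part from calling the genes in the same libraries, and their shares over all genes were not computed.

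The calls rest on the block and on 1 library. The median gene differed by 0.867 on the log2 scale between the Dox times, beside 0.274 between the mutant lines at 24 h and 0.316 at 72 h. With the 24 and 72 h libraries pooled as replicates, edgeR called 0 genes (260 at an unadjusted p under 0.05) and DESeq2 called 13, 2 higher in H3.3K27M and 11 higher in H3.3K27L. Without the deep H3.3K27M library at 24 h, which left that line with 1 library assumed to vary like the others, 159 genes were called, and 151 of them were among the 733.

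**Figure D1:**
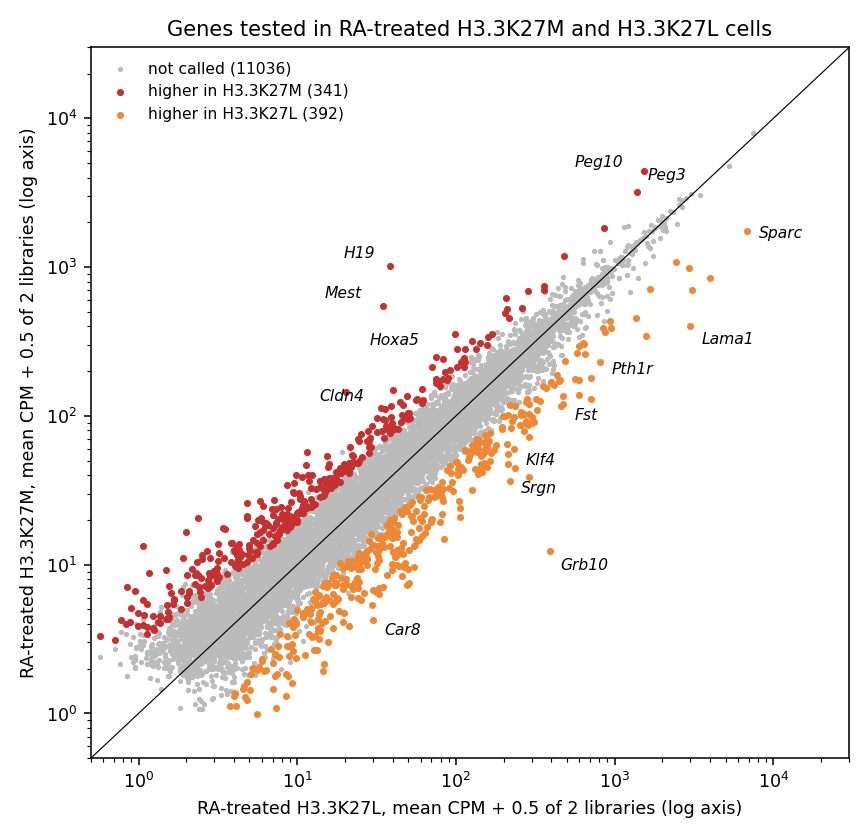
Mean CPM plus 0.5 of the 2 RA-treated H3.3K27L libraries (x axis) against that of the 2 RA-treated H3.3K27M libraries (y axis), both on log axes, with 1 point per gene tested and the line of equality. The 341 genes called higher in H3.3K27M are red and the 392 called higher in H3.3K27L orange, and Grb10 lies farthest below the line among the labelled genes.

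WT-H3.3 cells were set beside these differences. H3.3K27M differed from WT-H3.3 in 2 genes (0.017%), the imprinted gene Dlk1 and the predicted gene Gm15564, and H3.3K27L differed from WT-H3.3 in 363 (3.08%). These comparisons share the WT-H3.3 libraries. The fitted level of WT-H3.3 lay between the mutant lines for 224 of the 341 genes higher in H3.3K27M and for 368 of the 392 genes higher in H3.3K27L. It was nearer to H3.3K27M for 318 and 268 of them. Both sets of counts depend in part on having called the genes for a distance between the mutant lines in this same fit. The shares over all genes were not computed.

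Genes of the extraembryonic endoderm were higher in H3.3K27L than in H3.3K27M. Of 42 listed genes, 34 passed the filter on low counts. Of these, 28 were called higher in H3.3K27L and 0 higher in H3.3K27M, beside 3.33% and 2.9% of all genes. The list was made with earlier results of these data known, so part of this excess may follow from the choice of members. The median log2 fold change (H3.3K27M over H3.3K27L) was -2.002, beside 0.022 over all genes tested. The median was -2.16 at 24 h and -1.37 at 72 h. Sox7, Gata4, Col4a1, Col4a2 and Plat were set aside with their chromosomes, Afp, Apoa1 and Cer1 fell below the filter, and Apoe, Lrp2, Krt8, Krt18, Krt19 and Stra6 were tested and not called. At an unadjusted p under 0.05, 30 were higher in H3.3K27L and 1 higher in H3.3K27M, and DESeq2 called 24 and 0. Of all 11769 genes tested, 2802 had an unadjusted p under 0.05, both directions together. Without the H3.3K27M library at 24 h, 13 members were called, all higher in H3.3K27L.

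Transcription factors that specify this lineage were among them. Gata6, which starts the endoderm program, had 76.1 and 141.1 CPM in H3.3K27M cells at 24 and 72 h, 127.5 and 169.7 CPM in WT-H3.3 cells and 213 and 434.2 CPM in H3.3K27L. Its 2 H3.3K27L values lay above all 4 others, and the log2 fold change was -1.56 ± 0.18 (adjusted p = 0.000268, edgeR). Sox17, a partner factor of the same lineage, had 46.2 and 118.6 CPM in H3.3K27M cells, 109 and 87.3 CPM in WT-H3.3 cells and 171.5 and 272.9 CPM in H3.3K27L (-1.53 ± 0.28, adjusted p = 0.00479). WT-H3.3 and H3.3K27M overlapped for Sox17, and H3.3K27L was again apart.

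Factors of differentiated endoderm followed. Foxa2, a pioneer factor of endoderm, had 18.6 and 125.5 CPM in H3.3K27M cells, 47.6 and 154.4 CPM in WT-H3.3 cells and 97.1 and 476.6 CPM in H3.3K27L, with a log2 fold change of -2.14 ± 0.22 (adjusted p = 0.00016). The mutant lines overlapped across times for Foxa2, since the level rose from 24 to 72 h in each line, but at each time the order was the same. Hnf4a, a nuclear receptor of visceral endoderm and liver, was low throughout, with 1.41 and 1.90 CPM in H3.3K27M cells, 9.53 and 2.18 CPM in WT-H3.3 cells and 22.6 and 5.67 CPM in H3.3K27L (-3.56 ± 0.49, adjusted p = 0.000767).

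GATA factors such as Gata6 recognize a short motif, and the promoters of the group were searched for its letters AGATAA or, on the other strand, TTATCT, in the RefSeq windows of GRCm38.p6 from 250 bases before to 50 bases after the start. Of the 28 genes, 18 had a window and 3 of them (16.7%) held the motif, Dab2, Foxa2 and Hnf4a, beside 12.7% of all 27025 genes with a window. A match is a description of these letters and not a binding site. The stretches of Foxa2 (chr2:148045612-148045677, minus strand) and Hnf4a (chr2:163506775-163506840, plus strand) are shown 5′ to 3′ because they are the factors of the group with a match upstream of the start, with the matched letters in capitals.
Foxa2: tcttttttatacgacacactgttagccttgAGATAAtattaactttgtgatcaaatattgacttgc
Hnf4a: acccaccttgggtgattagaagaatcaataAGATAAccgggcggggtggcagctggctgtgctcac

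Some matrix genes of the endoderm list were among those called higher in H3.3K27L, while the type IV collagen genes Col4a1 and Col4a2 were set aside and not tested. Sparc, a matrix protein made in large amounts by parietal endoderm, had 1177 and 2338 CPM in H3.3K27M cells at 24 and 72 h, 2248 and 4077 CPM in WT-H3.3 cells and 5906 and 7761 CPM in H3.3K27L. At each time H3.3K27M was lowest and H3.3K27L highest, and the log2 fold change between the mutant lines was -2.04 ± 0.22 (adjusted p = 0.000191). H3.3K27M and WT-H3.3 overlapped across times, and H3.3K27M minus WT-H3.3 was not called (-0.86 ± 0.21, adjusted p = 0.255, edgeR). Lama1, the laminin chain of the embryonic basement membrane, had 665 and 133 CPM in H3.3K27M cells, 2718 and 245 CPM in WT-H3.3 cells and 5423 and 533 CPM in H3.3K27L (-2.51 ± 0.27). Lamb1 and Lamc1, which complete the same trimer, were higher in H3.3K27L by -2.21 ± 0.24 and -1.97 ± 0.25 on the same scale. Serpinh1, the collagen chaperone, differed less (-1.20 ± 0.18). Lama1, Lamb1, Lamc1 and Serpinh1 are named here because of their values.

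Genes of other functions in the endoderm list were also called higher in H3.3K27L. Pth1r, the parathyroid hormone receptor that marks parietal endoderm, had 76.3 and 380.2 CPM in H3.3K27M cells, 134.8 and 571.4 CPM in WT-H3.3 cells and 303.6 and 1309 CPM in H3.3K27L (-1.89 ± 0.17, adjusted p = 9.12e-05). Srgn, the core protein of a secretory proteoglycan, had 26.4 and 45.2 CPM in H3.3K27M cells, 59.99 and 54.6 CPM in WT-H3.3 cells and 217.3 and 218.1 CPM in H3.3K27L (-2.69 ± 0.22, adjusted p = 4.79e-05). For Srgn the H3.3K27L libraries were close at both times and lay above all 4 others. Fst, the activin antagonist follistatin, had 43.8 and 194.7 CPM in H3.3K27M and 211.8 and 732.4 CPM in H3.3K27L (-2.09 ± 0.17, adjusted p = 4.79e-05). Ctsh, a lysosomal cysteine protease, had 4.06 and 5.70 CPM in H3.3K27M and 29.5 and 28.3 CPM in H3.3K27L (-2.69 ± 0.27, adjusted p = 0.00016), and Pdgfra, the receptor of primitive endoderm, differed by -1.70 ± 0.18 (adjusted p = 0.000164).

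**Figure D2:**
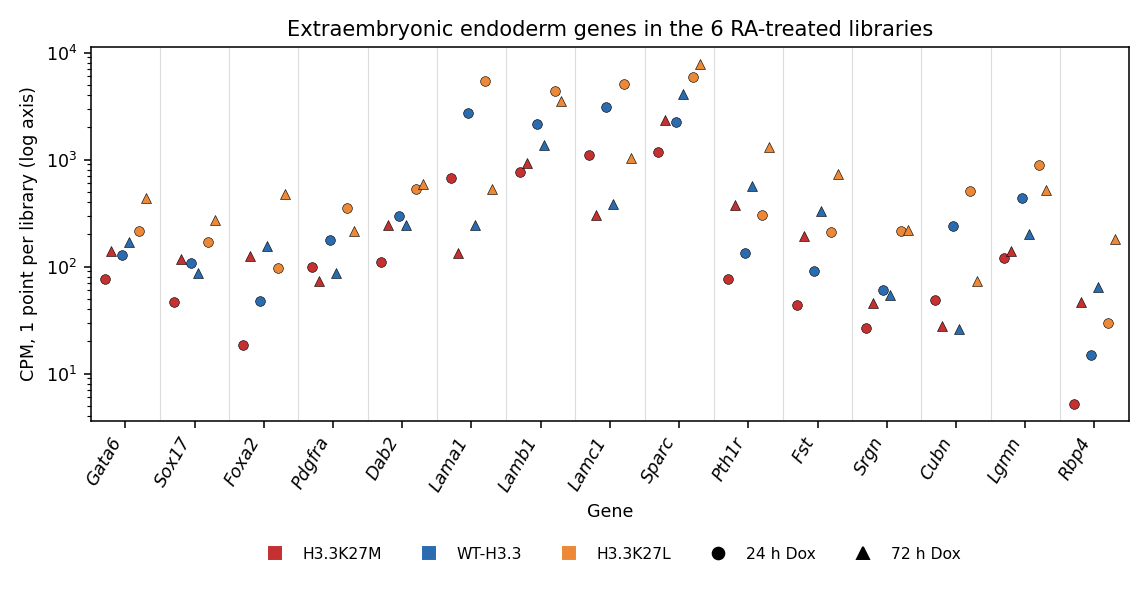
CPM (log axis) of 15 extraembryonic endoderm genes in each of the 6 RA-treated libraries, coloured by line, with circles for 24 h and triangles for 72 h of Dox. At each Dox time the H3.3K27L point lies above the H3.3K27M point for all 15 genes, for Sparc at 5906 and 7761 against 1177 and 2338 CPM. The genes were chosen with their values known and leave out those not called, so the shared direction follows from the choice.

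The ESC fit held 8 libraries each of H3.3K27M, H3.3K27L, WT-H3.3 and WT-H3.3 given the PRC2 inhibitor GSK343. The H3.3K27L ESC replicates differed in their share of counts on chromosomes 8, 14 and Y, given below, and the contrast averages over them. In undifferentiated ESCs, 24 genes of the endoderm list were tested and 2 were called higher in H3.3K27M and 1, Fst, higher in H3.3K27L (backgrounds of 2.52% and 1.1% of 13511 genes, with 3.61% called in both directions). Their median log2 fold change in ESCs was 0.18. The difference between the contrast in RA-treated cells and that in ESCs was itself tested in 1 fit of all 38 libraries, where 356 of 15053 genes (2.36%) were called, 124 toward H3.3K27M (0.824%) and 232 toward H3.3K27L (1.54%). Of the endoderm genes, 15 were called toward H3.3K27L and 0 toward H3.3K27M. For Sparc the contrast in RA-treated cells minus that in ESCs was -2.16 ± 0.25 on the log2 scale (adjusted p = 1.21e-05), and for Srgn it was -3.51 ± 0.48 (adjusted p = 9.65e-05). Srgn was near the limit of detection in ESCs, with medians of 0.93 CPM in H3.3K27M and 0.65 CPM in H3.3K27L, so its ESC contrast rests on few counts. The ESC and RA-treated libraries were deposited as separate tables, so the state of the cells and anything else that differed between those sets of libraries cannot be told apart. Without the H3.3K27M library at 24 h, 30 genes were called, and 29 of them were among the 356.

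Hox genes went the other way. Of 39 Hox genes 29 were tested. Of these, 14 were called higher in H3.3K27M and 0 higher in H3.3K27L, beside 2.9% and 3.33% of all genes, and the median log2 fold change was 1.06. DESeq2 called 11 and 0, and 21 and 2 had an unadjusted p under 0.05, beside 2802 of all 11769 genes in both directions together. The genes called lay in all 4 clusters and included Hoxa3, Hoxa4, Hoxa5, Hoxb1, Hoxb3, Hoxb5, Hoxb6, Hoxb8, Hoxb9, Hoxc4, Hoxc5, Hoxc8 and Hoxd1, while Hoxa9, Hoxa10, Hoxc10, Hoxc13 and Hoxd13 had values below 0 and were not called. Beside these genes, the 9 summed endoderm markers, all with counts in every library, stood at 2096 and 3111 CPM in H3.3K27M and at 12347 and 10103 CPM in H3.3K27L. Most of that sum is Sparc and Lama1. The part of this difference in the Hox, RA response and neural values was not tested. Without the H3.3K27M library at 24 h, 6 Hox genes were called, and without the H3.3K27L library at 24 h, 9.

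Hoxa5, of the middle of the A cluster, had 116.8 and 379.4 CPM in H3.3K27M cells at 24 and 72 h, 63.8 and 324.7 CPM in WT-H3.3 cells and 29.7 and 118.3 CPM in H3.3K27L. At each time H3.3K27M was highest and H3.3K27L lowest, and the log2 fold change was 1.84 ± 0.18 (adjusted p = 0.00016). Hoxb1, the direct RA target of the hindbrain, had 23.3 and 52.9 CPM in H3.3K27M cells, 20.3 and 39.3 CPM in WT-H3.3 cells and 7.87 and 12.5 CPM in H3.3K27L (1.79 ± 0.23, adjusted p = 0.000513). Hoxc5 and Hoxb5 differed by 1.87 ± 0.20 and 1.73 ± 0.22. In ESCs 17 Hox genes were tested, of which 4 were called higher in H3.3K27M and 0 higher in H3.3K27L, at a median of 0.692. The shares over all genes tested in ESCs were 2.52% and 1.1%.

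**Figure D3:**
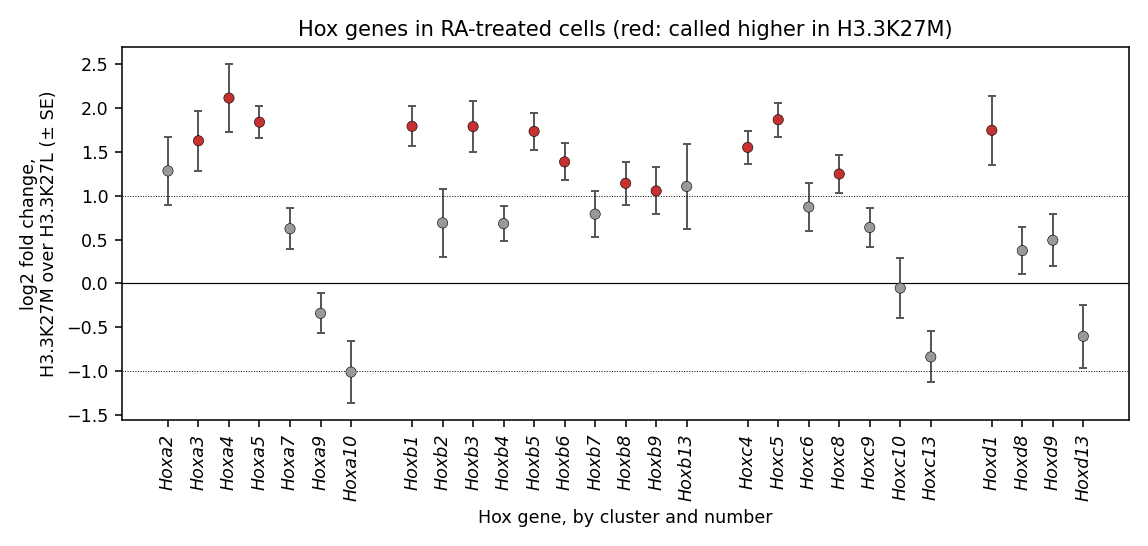
Log2 fold change of H3.3K27M over H3.3K27L in RA-treated cells (y axis, points with SE from the edgeR fit) for 28 of the Hox genes tested, ordered by cluster and number (x axis), with genes called in red and dotted lines at 2-fold. The 13 called genes shown lie above 1, and the lowest value, of Hoxa10, is -1.01.

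Receptors of RA bind as dimers to repeats of the short motif AGGTCA, read TGACCT on the other strand. Of the 14 Hox genes, 6 had a promoter window and Hoxa5 and Hoxc4 held it, beside 18.1% of all genes with a window, and 1 of the 18 endoderm windows (Cited1) held it. None of these 6 Hox windows held the GATA letters. The Hoxc4 stretch (GRCm38.p6 chr15:103034219-103034284, plus strand) is shown as the one in which the motif, in capitals, lay upstream of the start.
Hoxc4: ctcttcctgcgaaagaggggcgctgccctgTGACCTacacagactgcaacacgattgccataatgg

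Other RA response genes were divided. Of 25 tested, 8 were higher in H3.3K27M and 2 higher in H3.3K27L, with a median of 0.92, beside 2.9% and 3.33% of all genes. Meis2, a cofactor of Hox proteins, differed by 1.06 ± 0.17 (adjusted p = 0.0019). Dhrs3, which reduces retinaldehyde, was higher in H3.3K27M by 1.39 ± 0.23. Cyp26a1, the enzyme that degrades RA and is induced by it, was higher in H3.3K27L, with 514 and 1212 CPM against 237.1 and 500.3 CPM in H3.3K27M (-1.20 ± 0.19, adjusted p = 0.00199).

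Genes of the neural progenitor and the neuronal cytoskeleton and synapse lists were higher in H3.3K27M where they were called. Axon guidance genes went both ways, with 4 of 43 called higher in H3.3K27M and 5 higher in H3.3K27L. Of 27 neural progenitor genes, 7 were called higher in H3.3K27M and 0 higher in H3.3K27L (median 0.716), and of 23 genes of the neuronal cytoskeleton and synapse 5 and 0 (median 0.763). Among all genes tested, 2.9% and 3.33% were called in these directions. Nes, the intermediate filament of neural progenitors with the CPM given above, differed by 1.54 ± 0.20 (adjusted p = 0.000564). Sox11, a factor of neurons being born, had 283.4 and 704.9 CPM in H3.3K27M cells, 172.1 and 523.9 CPM in WT-H3.3 cells and 110.9 and 294.4 CPM in H3.3K27L (1.31 ± 0.16, adjusted p = 0.000426). Dcx, of migrating neurons, was low, with 11.7 and 9.51 CPM in H3.3K27M and 2.53 and 3.40 CPM in H3.3K27L (1.95 ± 0.38, adjusted p = 0.00675). Pax6 (0.89 ± 0.21) and Sox2 (0.37 ± 0.21) did not pass the thresholds, and Grin1, a glutamate receptor subunit, had 0 to 0.70 CPM and was not tested.

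Among the genes eligible to be named, imprinted genes held the largest difference in each direction. Of 37 tested, 11 were higher in H3.3K27M and 4 higher in H3.3K27L, beside 2.9% and 3.33% of all genes. Grb10 (NCBIM37 chromosome 11, 11830511 to 11938686), an adaptor that restrains growth factor signalling, had 19.97 and 3.80 CPM in H3.3K27M cells at 24 and 72 h, 15.6 and 3.82 CPM in WT-H3.3 cells and 507.1 and 279.3 CPM in H3.3K27L (-5.06 ± 0.28, adjusted p = 2.12e-06). H3.3K27M and WT-H3.3 overlapped and H3.3K27L stood 33.5-fold above H3.3K27M. H19 (chromosome 7, 149761434 to 149764048), a noncoding RNA expressed from the maternal allele, had 774.2 and 1257 CPM in H3.3K27M cells, 1256 and 1832 CPM in WT-H3.3 cells and 35.3 and 40.4 CPM in H3.3K27L (4.69 ± 0.22, adjusted p = 5.53e-07). Mest (chromosome 6, 30673547 to 30698457), expressed from the paternal allele, had 1058 and 43.0 CPM in H3.3K27M cells, 1355 and 40.4 CPM in WT-H3.3 cells and 64.9 and 3.78 CPM in H3.3K27L (3.99 ± 0.25, adjusted p = 6.08e-06).

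These 3 genes differed in ESCs too. Grb10 had a median of 14.8 CPM (9.0 to 27.7) in the 8 H3.3K27M ESC libraries and 137.5 CPM (44.4 to 171.7) in 7 of H3.3K27L (the library of 68378 counts left out), with no overlap, and a log2 fold change of -2.71 ± 0.28 (adjusted p = 2.01e-06). Mest had a median of 102 CPM (73.0 to 126.4) in H3.3K27M and 6.78 CPM (0.28 to 8.89) in H3.3K27L, again with no overlap (4.38 ± 0.41, adjusted p = 1.26e-06). H19 was near the limit of detection in ESCs, at medians of 1.97 and 0.17 CPM (3.09 ± 0.33). The contrast of Grb10 in RA-treated cells minus that in ESCs was -2.46 ± 0.63 (adjusted p = 0.0272), and those of H19 and Mest did not pass that test (adjusted p = 0.253 and 0.945).

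The imprinted genes, Grb10, H19 and Mest included, were set out by their known parental allele, a grouping made after the values had been seen, and 6 of the 37 were left ungrouped, of which Ddc was called higher in H3.3K27M and the other 5 were not called. Of 21 paternally expressed genes, 8 were higher in H3.3K27M and 0 higher in H3.3K27L (median 0.903), and of 10 maternally expressed genes 2, H19 and Dcn, were higher in H3.3K27M and 4, Grb10, Igf2r, Zim1 and H13, higher in H3.3K27L (median -0.766). Peg10, a retroelement-derived gene of the placenta, had 8520 and 387.8 CPM in H3.3K27M against 2957 and 107.3 CPM in H3.3K27L (1.67 ± 0.21, adjusted p = 0.000444). Igf2r, the receptor that clears IGF2, had 113.9 and 68.4 CPM in H3.3K27M cells, 89.2 and 37.7 CPM in WT-H3.3 cells and 410.4 and 206.7 CPM in H3.3K27L (-1.74 ± 0.17, adjusted p = 0.000149). Its antisense partner Airn was called the opposite way (1.14 ± 0.32), and because strand-aware counting is not stated, reads of that pair cannot be assigned with certainty. In ESCs 6 of 18 paternally expressed genes were called higher in H3.3K27M and 0 lower. Of 8 maternally expressed ones 1 was higher (H19) and 3 were lower (Grb10, Cdkn1c and Phlda2). Over all genes tested in ESCs, 2.52% were called higher in H3.3K27M and 1.1% lower.

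**Figure D4:**
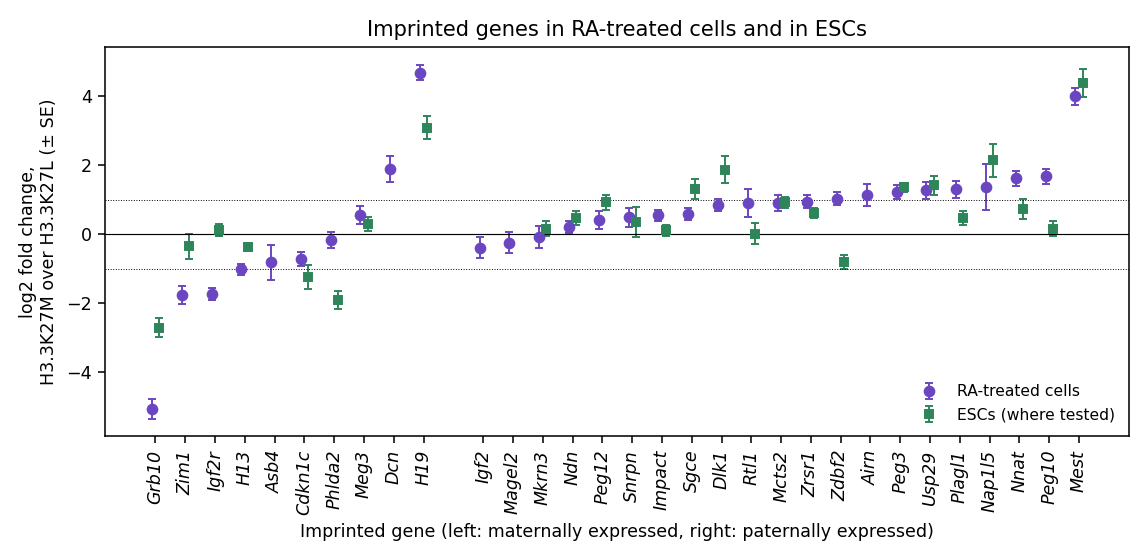
Log2 fold change of H3.3K27M over H3.3K27L (y axis, with SE from the edgeR fits) for imprinted genes in RA-treated cells (purple circles) and in ESCs (green squares, where tested), with maternally expressed genes on the left and paternally expressed genes on the right. Grb10 is lowest (-5.06 and -2.71), and H19 and Mest are highest in RA-treated cells (4.69 and 3.99).

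Of 14 naive pluripotency genes tested, Klf4, Dppa5a, Sall4 and Fbxo15 were called higher in H3.3K27L and 0 higher in H3.3K27M, with a median of -0.518, beside 3.33% and 2.9% of all genes. Of 14 general and primed pluripotency genes 1 was called in each direction (median -0.227). Klf4, a factor of naive ESCs that epithelia use as well, had 51.0 and 67.7 CPM in H3.3K27M cells, 87.5 and 77.5 CPM in WT-H3.3 cells and 217 and 243.4 CPM in H3.3K27L (-1.98 ± 0.18, adjusted p = 9.13e-05). Defining factors were scarce in every library, as Nanog had 1.22 to 3.51 CPM and was not tested and Pou5f1 had 5.62 CPM or less (-1.25 ± 0.55, adjusted p = 0.187). In the general and primed list, L1td1, an RNA-binding protein of ESCs, was higher in H3.3K27L (-1.79 ± 0.16), and Lin28b, which blocks let-7 maturation, was higher in H3.3K27M (1.24 ± 0.17).

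Of 37 targets of hypoxia-inducible factor and enzymes of glycolysis tested, 10 were called higher in H3.3K27L, 0 higher in H3.3K27M and 27 not called (median -0.698). The shares of all genes called in these directions were 3.33% and 2.9%. The summed endoderm markers, given with the Hox genes and mostly Sparc and Lama1, were higher in H3.3K27L at both times. Their part in these values was not tested. P4ha1, a collagen prolyl hydroxylase, had 86.0 and 144.5 CPM in H3.3K27M cells, 225 and 158.3 CPM in WT-H3.3 cells and 470.6 and 444.8 CPM in H3.3K27L (-2.03 ± 0.25, adjusted p = 0.000339). Its relative P4ha2, which counts among the endoderm genes as well, differed by -1.38 ± 0.17, Ndrg1, a stress-induced gene, by -1.75 ± 0.24 and Pfkl, a phosphofructokinase subunit, by -1.49 ± 0.19. In ESCs the median of the 37 genes was 0.367, 3 were called higher in H3.3K27M, and 12 had a difference between states called toward H3.3K27L. The share of all genes called higher in H3.3K27M in ESCs was 2.52%. For the difference between states, 1.54% of all genes were called toward H3.3K27L. Vegfa (-0.70 ± 0.16) and Ddit4 (0.20 ± 0.17) were not called in RA-treated cells.

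Of 18 mesoderm and muscle genes, 7 were called higher in H3.3K27M and Pdgfra alone higher in H3.3K27L, beside 2.9% and 3.33% of all genes. Acta2, smooth muscle actin, had 421.9 and 290.9 CPM in H3.3K27M cells, 299.3 and 492.3 CPM in WT-H3.3 cells and 153.3 and 41.9 CPM in H3.3K27L (1.91 ± 0.40, adjusted p = 0.00968), a call that DESeq2 did not make. Wt1, of mesothelium and kidney, differed by 1.81 ± 0.25. Of 31 fibroblast and matrix genes 9 were higher in H3.3K27M, among them Lgals1 (1.56 ± 0.27) and Col5a1 (1.37 ± 0.22), and 4 higher in H3.3K27L, among them Ctgf, with 2915 CPM at 72 h against 560 CPM (-1.62 ± 0.29). The summed level of 8 fibroblast markers, of which 7 had counts in every library and Lum stayed at 0.28 CPM or less, was 418.9 CPM in H3.3K27M and 267.2 CPM in H3.3K27L at 24 h, and 147.5 and 63.9 CPM at 72 h, and its part in these calls was not tested.

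Genes of PRC2 and of H3.3 itself were not called. Over all genes tested 6.23% were called, 2.9% higher in H3.3K27M and 3.33% higher in H3.3K27L. At that share, lists of 13 and 11 genes would hold few calls in any case. Of 13 PRC2 subunits 0 were called by edgeR and by DESeq2, and 6 had an unadjusted p under 0.05. Of 11 genes of H3.3 and its chaperones 0 were called and 0 had an unadjusted p under 0.05. Ezh2, the methyltransferase of PRC2, differed by 0.31 ± 0.15 (adjusted p = 0.25). Of 22 PRC1 genes, Pcgf5 was called, with 27.9 and 57.4 CPM in H3.3K27M against 82.4 and 139.1 CPM in H3.3K27L (-1.43 ± 0.17, adjusted p = 0.000322). Among 52 other developmental factors regulated by PRC2, 7 were higher in H3.3K27M, such as Wt1 and Tbx2, and 5 higher in H3.3K27L, Gata6, Sox17, Foxa2, Ihh and Pitx1. Lists of 39 replication genes and 37 mitosis genes held 0 calls by edgeR and by DESeq2, with 3 and 9 genes at an unadjusted p under 0.05. Over all 11769 genes tested, 2802 had an unadjusted p under 0.05, which is the background for these counts and for that of PRC2. A gene that missed the thresholds is not shown to be equal between the lines.

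**Figure D5:**
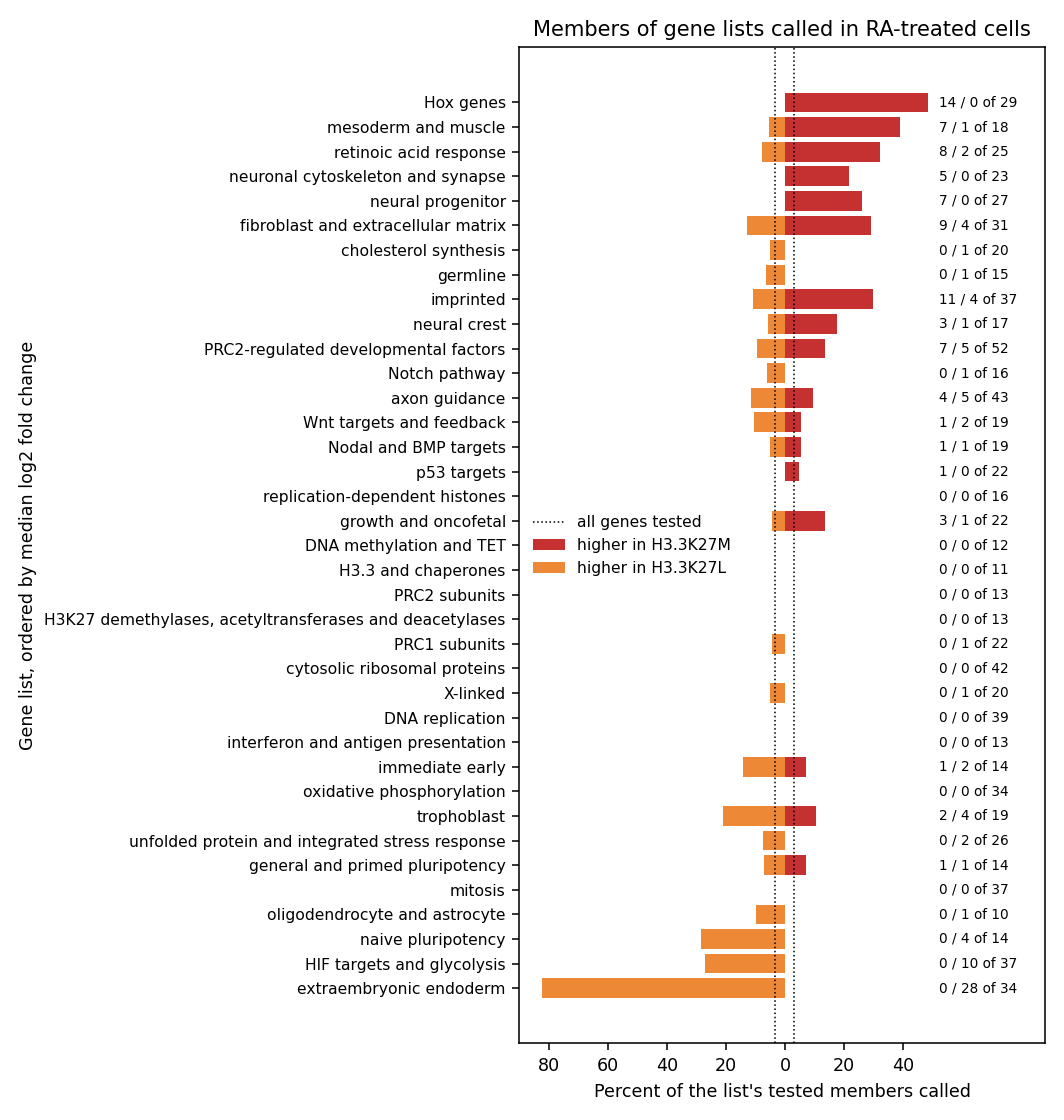
Percent of each list's tested members called higher in H3.3K27M (red, to the right) or in H3.3K27L (orange, to the left), for lists with 10 or more members tested, with counts beside the bars and dotted lines at 2.9% and 3.33% of all genes. Extraembryonic endoderm (28 of 34) and Hox genes (14 of 29) lie at the ends.

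Among genes outside these lists, those with the lowest adjusted p-values included Cldn4, a tight junction claudin, with 118.9 and 102.3 CPM in H3.3K27M cells, 122.8 and 103.7 CPM in WT-H3.3 cells and 37.0 and 33.6 CPM in H3.3K27L (1.65 ± 0.17, adjusted p = 0.00016). The ranges of H3.3K27M and WT-H3.3 overlapped for this gene, and H3.3K27L lay below both. Tshz1, a zinc finger factor, differed by 1.46 ± 0.17 and Scd3, a stearoyl-CoA desaturase, by 3.38 ± 0.40. Dub1 and Dub1a, deubiquitinases from a family of near-identical copies, were higher in H3.3K27M by 2.07 ± 0.23 and 2.55 ± 0.28 and are uncertain. Higher in H3.3K27L were Il33, an alarmin cytokine, with 84.2 and 82.4 CPM against 12.1 and 16.7 CPM (-2.60 ± 0.20, adjusted p = 4.46e-05), and Car8, a relative of carbonic anhydrases, with 30.5 and 28.3 CPM against 3.37 and 4.18 CPM (-3.06 ± 0.28, adjusted p = 0.000107). For Il33 and Car8 the H3.3K27L libraries were close at both Dox times and lay above all 4 others. The fatty acid carrier Fabp3 (-2.32 ± 0.19), the adenosine receptor Adora1 (-2.51 ± 0.21) and the chemerin receptor Cmklr1 (-2.52 ± 0.22) were higher in H3.3K27L too.

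Some chromosomes differed as a whole between the lines. With chromosomes 8, 14 and Y kept in, the median log2 fold change of 460 genes of chromosome 14 was -0.496, as against -0.342 in ESCs, with a difference of 0.549 between H3.3K27L and WT-H3.3 and 0.012 between H3.3K27M and WT-H3.3. The 4 Y-linked genes had a median of 4.06. Chromosome 8 had a median of 0.0305 in RA-treated cells and 0.222 in ESCs. In the H3.3K27L ESC libraries, chromosomes 8, 14 and Y held 9.84% to 10.1% of counts in replicate 1. In replicate 2 they held 6.63% to 7.12%. They held 8.68% to 8.99% in H3.3K27M ESC libraries, and 12.43% and 10.25% in RA-treated H3.3K27L at 24 and 72 h. The ESC contrast thus averages over H3.3K27L replicates that differ. On chromosome 6, genes that start between 118057470 and 143776945 (NCBIM37) had a median of 0.524 (125 genes, 100 above 0) in RA-treated cells and 0.541 in ESCs, against 0.032 on the rest of that chromosome, and 13 of them were called higher in H3.3K27M, including Etv6 (1.62 ± 0.19), a repressor of the ETS family, and 2, Tpi1 and Slc2a3, higher in H3.3K27L. The window was drawn after the values had been seen, and setting it aside left 725 genes called, 718 of them shared. Hoxa genes, Mest and Peg10 lie outside it.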

How the data were processed

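The members and gene lists were chosen with earlier results of these data known. Per the labels and the study's methods, the authors sequenced QuantSeq 3′ or KAPA mRNA libraries (which kit made which library is not given in the sources used here), aligned single-end reads to mm9 with STAR 2.7.1 and deposited raw counts per gene. The counting annotation is not given in the sources used here. Of 55471 genes, 32589 matched the NCBIM37 annotation (98.53% of RA counts). Of the 5155 genes set aside on chromosomes 8, 14 and Y, 2395 were placed by table order. The 4 count columns of other cultures were not used.

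Counts were analysed with edgeR 4.0.16 (R 4.3.3, TMM, filterByExpr by line, CPM on TMM-adjusted library sizes, quasi-likelihood F tests, Benjamini-Hochberg adjustment over all genes tested). The RA fit held a mean for each line and the Dox time as block, with 2 residual degrees of freedom. The pairing comes from the Dox time: differences between 72 and 24 h correlated at 0.9 to 0.93 between lines. The ESC fit had a mean for each group and time (32 libraries, contrast over 4, 8, 24 and 72 h, of which 8 were WT-H3.3 cells given the PRC2 inhibitor GSK343 and entered the filter, the scaling and the estimate of the spread but not the contrast), and the difference was tested in 1 fit of 38 libraries. SE values come from the fits, and a log2 fold change is H3.3K27M over H3.3K27L throughout. The study's methods describe biological replicates made weeks apart. The RA-treated lines had 1 library per Dox time here, so their p-values measure the spread between Dox times beyond the block. DESeq2 1.42.0 was an alternative. Scripts were tested on simulated data. Python 3.11.15, pandas 2.3.3, NumPy 2.4.6, SciPy 1.17.1 and Matplotlib 3.10.9 were used.

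Genes were named if fixed in a short list, or, among called genes with at least 5 CPM in the higher line and the same sign at both Dox times (Gm and Rik symbols left out), if among the 12 of lowest adjusted p or the 6 of largest fold in a direction, or if among up to 4 called members of a list in a direction by adjusted p. Genes of the endoderm, Hox, imprinted and other lists named beyond these were chosen after their values were seen. Some genes are not reported here.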

Additional observations from a re-analysis of the deposited data

Results flagged for a closer look

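The contrast between H3.3K27M and H3.3K27L differed between RA-treated cells and ESCs for 356 genes in the fit of all 38 libraries (edgeR, adjusted p under 0.05, difference over 2-fold). Among the genes named by the rule, 41 passed this test, and the values in parentheses are the log2 fold change in RA-treated cells minus that in ESCs. Many genes were named for their contrast in RA-treated cells, which enters this difference, so the choice favoured their passing. Of all 15053 genes tested, 2.36% passed. A negative value, a shift toward H3.3K27L, was found for genes of the endoderm and its matrix, Cited1 (-2.36), Ctsh (-3.07), Hnf4a (-3.60), P4ha2 (-1.73), Sparc (-2.16) and Srgn (-3.51). Of the pluripotency lists, a negative value was found for Dppa5a (-1.51), Fbxo15 (-2.33), Klf4 (-1.49) and L1td1 (-1.40), and a positive one for Lin28b (1.38). Negative values were also found for Ndrg1 (-2.50), P4ha1 (-2.62) and Pfkl (-1.72) of the hypoxia and glycolysis list and for the imprinted genes Grb10 (-2.46) and Igf2r (-1.81). The other shifts toward H3.3K27L were those of Fabp3 (-2.61), Insig1 (-1.88), Xbp1 (-1.63), B4galnt2 (-4.28), Car8 (-4.15), Cmklr1 (-1.82), Dusp9 (-1.68), Il33 (-3.55), Klf6 (-1.26), Klhl13 (-1.32), Nrcam (-2.13), Pcgf5 (-1.80) and Taf7l (-2.28).

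A positive value, a shift toward H3.3K27M, was found for Bmp7 (1.65), Celf4 (2.37), Cldn4 (1.19), Ets1 (2.17), Etv6 (1.30), Lgals1 (1.68), Lin28b (1.38), Plk2 (1.10), Ptgs2 (2.47), Scd3 (3.13), Sox11 (1.84), Tshz1 (1.64) and Wt1 (2.57). Sox11 and Celf4 belong to the neural lists, Wt1 to the mesoderm list and Scd3 to none. Klhl13 was called in ESCs and not in RA-treated cells, where its values were 62.7 to 100.2 CPM. Some of the genes flagged here were hardly expressed in ESCs. Median ESC levels in H3.3K27M and H3.3K27L were 0.93 and 0.65 CPM for Srgn and 0.82 and 0.49 CPM for Ctsh. Il33, Ets1 and Wt1 fell below the filter on low counts in the ESC fit.

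The test depends on single libraries. It called 30 genes without the H3.3K27M library at 24 h, 97 without the H3.3K27L library at 72 h, 124 without the H3.3K27L library at 24 h and 186 without the H3.3K27M library at 72 h. Of the 41 named genes, 10, 20, 21 and 29 were still called in these fits. On the ESC side, the test averages over H3.3K27L replicates that differed in their share of counts on chromosomes 8, 14 and Y.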

How the results depend on the processing

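Of 114 called genes named by the rule, none changed direction in the fits that gave it a value, and calls of other genes in the text were not followed. Of these 114, DESeq2 kept 101, RLE normalization 113, upper-quartile normalization 111, no filter on low counts 113 and the 4 mutant libraries alone 113. Leaving out a library kept 95 to 113 of them, except without the H3.3K27M library at 24 h, which kept 52. For 733 genes called, leaving out 1 of the 6 RA libraries gave 159 to 949, for the 341 higher in H3.3K27M 45 to 485, and for the 392 higher in H3.3K27L 114 to 481, the lowest each time without the H3.3K27M library at 24 h. In the same fits 6 to 15 Hox genes were higher in H3.3K27M and 0 to 2 higher in H3.3K27L, and 13 to 28 endoderm genes were higher in H3.3K27L. The test between states, with 356 calls, gave 30, 97, 124 and 186 without each of the RA mutant libraries in turn and 355 without the shallow ESC library.

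With no replicate block (Dox times pooled), edgeR called 0 genes (0 in each direction, smallest adjusted p = 1) and DESeq2 called 13 (2 higher in H3.3K27M, 11 higher in H3.3K27L), and the test between states called 67. DESeq2 with the block called 199 genes higher in H3.3K27M, 38.5% of its calls against 46.5%. An adjusted p alone gave 1312 genes (612 and 700), a 4-fold threshold 154 (60 and 94), and glmTreat, which tests against a 2-fold change, 103 (22 and 81), with 2 Hox genes and 15 endoderm genes. Fewer calls follow from the construction of the last pair. The 4 mutant libraries alone gave 1 Hox gene higher in H3.3K27L. In ESCs, the 488 calls became 287 with 16 libraries alone, 70 with only 24 and 72 h, 527 with the replicate block and 591 with the pairing crossed, which was tried because same-numbered ESC libraries deviated in opposite directions at 4, 8 and 24 h (r = -0.289, -0.298 and -0.271). The cause of the other changes was not tested.

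In each line the RA-treated library at 72 h was shallower than that at 24 h. Thinning every library to the shallowest left 559 genes called, and the effect of depth at 72 h alone was not tested. Leaving out the shallow H3.3K27L ESC library at 72 h (68378 counts) gave 478 ESC calls. The change from 24 to 72 h followed exon length (Spearman -0.333 across 11219 genes, which are not independent replicates), and the contrast of the mutant lines did so at 0.142 at 24 h and 0.0127 at 72 h. These alternatives were added after seeing the data: the chromosome 6 stretch, the crossed pairing, DESeq2 with Dox times pooled, and leaving out RA libraries for the lists and for the test between states.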

Other observations

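Trophoblast genes were divided between the lines. Of 19 tested, 2 were called higher in H3.3K27M and 4 higher in H3.3K27L, beside 2.9% and 3.33% of all genes. Krt7, a keratin of simple epithelia, had 48.4 and 16.7 CPM in H3.3K27M at 24 and 72 h and 21.4 and 5.29 CPM in H3.3K27L (1.28 ± 0.23 on the log2 scale, adjusted p = 0.00454, edgeR), and Peg10 was the other gene higher in H3.3K27M. Cited1, which the endoderm list holds as well, had 12.2 and 192.8 CPM in H3.3K27M and 126.1 and 452 CPM in H3.3K27L (-2.20 ± 0.38, adjusted p = 0.00316). Cdx2, Eomes and Wnt7b, the remaining 3 genes higher in H3.3K27L, were not called by DESeq2, and Cdx2 and Eomes each had 1 count in the H3.3K27M library at 72 h. Elf5, a defining trophoblast marker, had 0 to 2 counts in the libraries.

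Axon guidance genes went both ways, with 4 of 43 called higher in H3.3K27M and 5 higher in H3.3K27L, beside 2.9% and 3.33% of all genes. Slit2, a secreted guidance ligand, had 42.1 and 48.7 CPM in H3.3K27M and 19.5 and 19.3 CPM in H3.3K27L (1.19 ± 0.23, adjusted p = 0.00678). Ephb3, an ephrin receptor, had 51.97 and 206.4 CPM in H3.3K27M and 123.5 and 512.8 CPM in H3.3K27L (-1.28 ± 0.16, adjusted p = 0.000496). Of 17 neural crest and mesenchyme genes, Ets1 (1.32 ± 0.19), Prrx1 (2.33 ± 0.47) and Prrx2 (1.57 ± 0.23) were higher in H3.3K27M. Snai1, a repressor of epithelial genes, was higher in H3.3K27L, with 28.7 and 245.3 CPM against 14.7 and 65.4 CPM (-1.47 ± 0.24, adjusted p = 0.00232).

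Of 20 cholesterol synthesis genes 1 was called, beside 6.23% of all genes. This was Insig1, which restrains sterol synthesis, with 145.1 and 38.02 CPM in H3.3K27M and 385.3 and 167.8 CPM in H3.3K27L (-1.73 ± 0.19, adjusted p = 0.000214). The median of that list was 0.62, toward H3.3K27M, and 12 of its genes had an unadjusted p under 0.05 in that direction. Among all 11769 genes tested, 2802 had an unadjusted p under 0.05 in either direction. Bmp7, a secreted ligand, was higher in H3.3K27M, with 49.9 and 29.3 CPM against 13.4 and 9.07 CPM in H3.3K27L (1.81 ± 0.26, adjusted p = 0.0012).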
